A study of Mus musculus with 8 samples.

Results

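Gfi1 and its paralogue Gfi1b were each measured by 1 probe set among the 22690 of the Affymetrix MOE430A_2.0 array, 1417679_at for Gfi1 and 1420399_at for Gfi1b. They were chosen as all probe sets that list either gene and no other, which gave 2 probe sets. RNA came from pan-T cells isolated magnetically from the spleens of C57Bl/6 mice, either wild type or Gfi1 knockout. The cells of both genotypes were cultured with antibodies against CD3 and CD28 at 2 µg/ml, which trigger the T cell receptor and its co-stimulatory receptor, for 4, 8 or 24 h, and untreated cells served as the 0 h sample. Each genotype and time has 1 array, 8 in all, and the titles of the 4 arrays of a genotype carry 1 source number, so no value below has a replicate of its own. The number, age and pooling of the mice, and how the knockout allele was made, are not stated in the labels.

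Gfi1 and Gfi1b encode nuclear zinc finger proteins that repress transcription. Both begin with a short SNAG domain that recruits the histone demethylase LSD1 with its CoREST partners and histone deacetylases, and both bind DNA through a core AATC. Gfi1 is known from lymphocytes, haematopoietic stem cells and granulocyte precursors, and Gfi1b from erythroid and megakaryocytic cells. Each is known to repress its own gene and that of the other.

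Because of that known self-repression and cross-repression, the 250 bases before the annotated start of each gene are shown first, from RefSeq's annotation of GRCm38.p6, 5′ to 3′ on the strand of the gene, which is the minus strand for both. The Gfi1b stretch is chr2:28621983-28622232 and the Gfi1 stretch is chr5:107725806-107726055, and the core AATC, or GATT where it lies on the other strand, is in capitals.
Gfi1b promoter: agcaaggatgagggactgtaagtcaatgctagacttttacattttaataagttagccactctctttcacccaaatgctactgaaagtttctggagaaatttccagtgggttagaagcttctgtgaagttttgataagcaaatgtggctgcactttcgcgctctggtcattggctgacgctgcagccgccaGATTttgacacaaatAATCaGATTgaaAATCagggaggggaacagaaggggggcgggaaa
Gfi1 promoter: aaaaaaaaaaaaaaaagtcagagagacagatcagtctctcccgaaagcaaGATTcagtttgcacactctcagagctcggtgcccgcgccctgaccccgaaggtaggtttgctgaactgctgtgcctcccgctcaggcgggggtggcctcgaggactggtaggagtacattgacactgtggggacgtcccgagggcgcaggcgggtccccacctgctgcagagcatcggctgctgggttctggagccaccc
The Gfi1b stretch held 4 cores, 2 on each strand, all of them within 60 bases of the start. The Gfi1 stretch held 1 core, on the other strand, 200 bases before the start. A second annotated Gfi1 start, with the stretch chr5:107724344-107724593, had 0. Of 32851 promoter stretches of the same length, 69.0% held at least 1 core on either strand and 7.04% held at least 4. The longer motif TAAATCAC was at 0 in all 3 stretches and in 0.514% of promoters. The GATA factor motif GATAA, searched like the others on both strands, occurred once in the Gfi1b stretch, 119 bases before the start, in neither Gfi1 stretch, and in 22.6% of promoters. TAAATCAC contains the core AATC, and the GATAA match overlapped no core. These are matches of letters, and binding was not measured.

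Gfi1 was the gene labelled as knocked out, and its signal under the knockout label exceeded that of wild type at 3 of the 4 times. In the knockout-labelled arrays it was 2316 at 0 h, 5979 at 4 h, 6459 at 8 h and 9885 at 24 h. In the wild-type-labelled arrays it was 881.5 at 0 h, 6359 at 4 h, 5259 at 8 h and 3966 at 24 h. The knockout-labelled signal was the higher at 0, 8 and 24 h and the lower at 4 h, the ranges over time overlapped, and the gene was above the floor on all 8 arrays. The floor, used throughout as the lower limit for log2 values, is a signal of 141.88 (log2 7.15). On its array the Gfi1 probe set ranked between the 69.3rd percentile of signal (wild type, 0 h) and the 97.1st (knockout, 24 h). The labels do not say whether the probe set falls inside the deleted sequence, so Gfi1 does not check them, and the genotypes are given below as labelled.

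On the log2 scale, the Gfi1 difference, knockout-labelled minus wild-type-labelled, was 1.39 at 0 h, -0.09 at 4 h, 0.30 at 8 h and 1.32 at 24 h. These correspond to ratios of signal of 2.63, 0.940, 1.23 and 2.49. Gfi1 was therefore at least 2-fold higher at 2 of the 4 times, 0 and 24 h, and its mean difference was 0.73 with an SD over the 4 times of 0.74, so the difference varied with time by as much as its own mean. Each time's difference is that of 1 array against 1 array and has no test. Among the 8457 genes tested, 8.08% had a signal 2-fold or more above wild type in the knockout-labelled array at 0 h, 11.8% at 4 h, 10.7% at 8 h and 9.18% at 24 h. A difference as high as that of Gfi1, or higher, was held by 4.27% of genes at 0 h, 56.3% at 4 h, 27.2% at 8 h and 5.65% at 24 h. Gfi1 was not among the genes at least 2-fold higher at all 4 times, which were 1.86% of those tested (157 genes, against 14 genes or 0.166% lower). Dividing each array by its median signal gave 125 higher and 29 lower.

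Gfi1b differed by less than 2-fold between the genotypes at every time. In the knockout-labelled arrays its signal was 1967 at 0 h, 367.8 at 4 h, 415.1 at 8 h and 124.9 at 24 h, the last under the floor. In the wild-type-labelled arrays it was 1240 at 0 h, 218.6 at 4 h, 433.6 at 8 h and 145.2 at 24 h. In both genotypes the 0 h array was the highest and the 24 h array the lowest, and the ranges overlapped. On the log2 scale the difference was 0.67, 0.75, -0.06 and -0.03 at 0, 4, 8 and 24 h, with a mean of 0.33 and an SD over the 4 times of 0.44. Without the floor the difference at 24 h was -0.22. A difference as high as this or higher was held by 14.9%, 16.2%, 49.1% and 56.5% of genes at the 4 times.

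**Figure D1:**
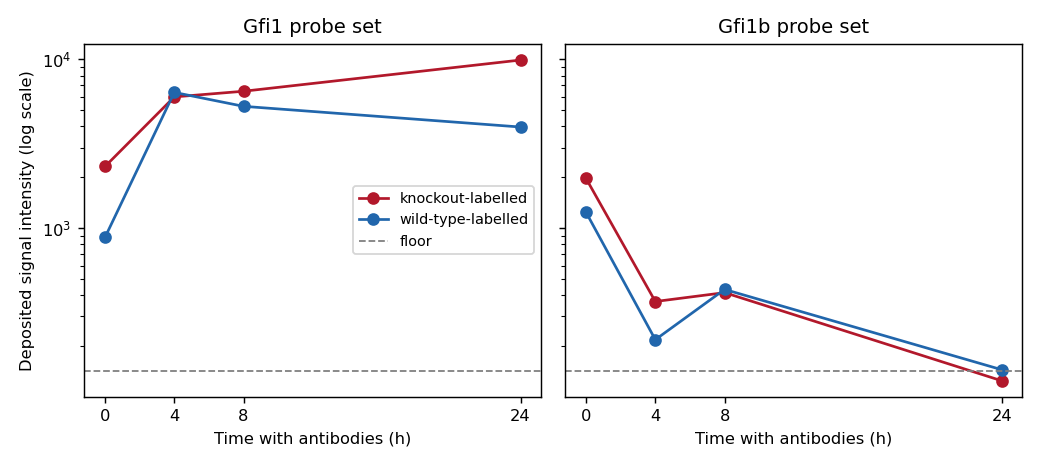
Deposited signal intensity (log axis) of the Gfi1 probe set (left) and the Gfi1b probe set (right) against hours with antibodies, 1 point per array, red for knockout-labelled and blue for wild-type-labelled, with the floor of 141.88 dashed. Gfi1 is lowest at 0 h and Gfi1b highest at 0 h in both genotypes, and the Gfi1 lines part between 8 and 24 h, to 9885 and 3966.

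Signals of T cell markers moved with the genotype, and their part in these differences was not tested. The summed signal of 17 T cell identity genes (such as Cd3e and Zap70) was 29626 to 75909 in the knockout-labelled arrays and 80667 to 122435 in the wild-type-labelled ones. None of the 17 lay at or under the floor on any array. Their median difference was -1.88 at 0 h, -1.73 at 4 h, -1.64 at 8 h and -0.25 at 24 h. Thy1 departed from this, at -0.88, 0.19, 0.22 and 1.60. A 2-fold deficit under the knockout label was held by 15, 16, 15 and 1 of the 17 at these times, and throughout by Trat1 alone. Among all 8457 genes tested, 571, 555, 563 and 428 had such a deficit at these times, and 0.166% had it throughout. The 24 h count of 1 is near the share of all genes. In the other direction, the summed signal of 13 genes of granulocyte precursors and neutrophils was 6688 to 177056 in the knockout-labelled arrays and 1006 to 16918 in the wild-type-labelled ones, and 9 of the 13 exceeded 2-fold at all 4 times (1.86% of all genes did), among them Ctsg (cathepsin G) at a mean difference of 4.67. The list medians were 3.40, 4.34, 4.34 and 1.35. Not every member went this way: Ltf, Camp and Ngp had mean differences of -0.28, -0.22 and -0.30, set in part by the floor. S100a9 was higher (mean 1.88) except at 24 h, where both arrays were under the floor. In bulk samples, fewer cells of a type and less RNA per cell cannot be told apart. Taken relative to the T cell list median of the same time, the Gfi1 difference was 3.28, 1.65, 1.93 and 1.56 and that of Gfi1b was 2.55, 2.49, 1.57 and 0.21, each value higher by construction than the one it came from.

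**Figure D2:**
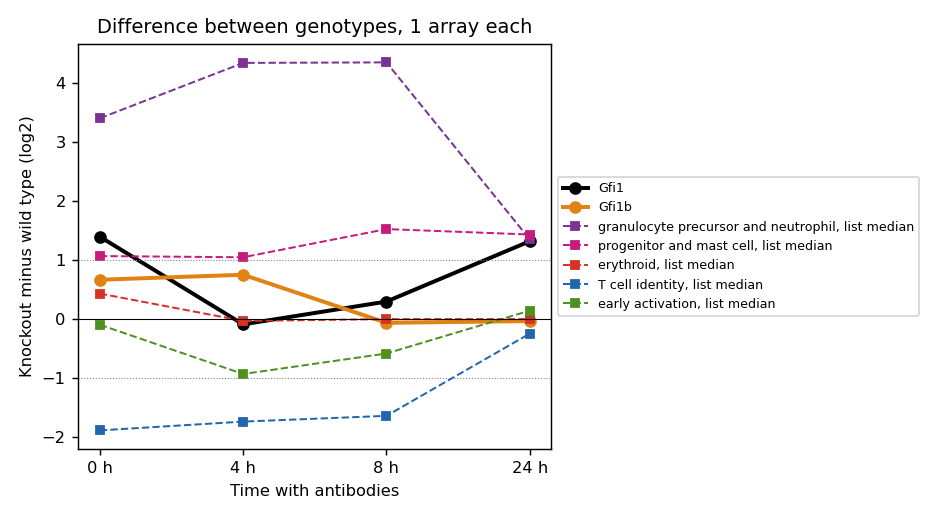
Difference in log2 signal, knockout-labelled minus wild-type-labelled, at each time for Gfi1 and Gfi1b (heavy lines, 1 array against 1 array) and as the median of 5 gene lists (dashed), with dotted lines at 2-fold. Gfi1 lies beyond 2-fold at 0 h (1.39) and 24 h (1.32), the Gfi1b line stays within 2-fold, and the T cell list lies below 0 throughout.

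Over time in culture Gfi1 and Gfi1b moved in opposite directions, and for both the step from 0 to 4 h was the larger part of the change. Time was fitted over both genotypes in limma, with genotype in the model, so the error is the difference between the responses of the 2 genotypes and not the spread between mice. Gfi1 rose by 2.13 on the log2 scale from 0 to 24 h (limma adjusted p = 0.0400, SE 0.40), and both genotypes were higher at 24 h than at 0 h. At 4 h its change was 2.11 (SE 0.40, limma adjusted p = 0.0703) and at 8 h 2.03 (SE 0.40, limma adjusted p = 0.0582), which miss the threshold of 0.05. The call at 24 h did not hold in every fit: in limma it was lost when any single array other than the wild-type 24 h array was left out (adjusted p 0.0885 to 0.278), and over all 16 alternatives the limma adjusted p ran from 0.0260 to 0.278. In this fit 0.804% of genes rose by 4 h while 0.627% fell. By 8 h these shares were 1.18% rising, 1.25% falling, and by 24 h 1.49% rising, 2.48% falling. The balance of rises and falls moved with the scaling: 126 genes rose and 210 fell at 24 h as deposited, against 217 and 152 when each array was divided by its median. For 4 h there were 68 rises and 53 falls, with 94 and 33 under the median scaling and 69 and 35 under quantile normalization. For 8 h there were 100 rises and 106 falls, with 143 and 69 under the median scaling and 100 and 68 under quantile normalization. The genes tested had a median genotype difference of -0.11, -0.16 and -0.19 at 4, 8 and 24 h under the median scaling.

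Gfi1b fell by 2.46 from 0 to 4 h (SE 0.36, limma adjusted p = 0.0340, lower in both genotypes) and fell by 3.44 from 0 to 24 h (SE 0.36, limma adjusted p = 0.00955, lower in both genotypes). At 8 h its change was -1.88 (SE 0.36, limma adjusted p = 0.0560). In signal as deposited, the 24 h level was 15.8-fold under the 0 h level in the knockout-labelled arrays and 8.54-fold under it in the wild-type-labelled ones. On the log2 scale the 24 h change rests on a knockout-labelled value set to the floor, and its size depends on the floor. It was -3.54 with the floor at the 20th percentile (limma adjusted p = 0.00806), -1.71 with the floor at the 60th (limma adjusted p = 0.0305) and -2.63 with log2 of the signal plus the floor (limma adjusted p = 0.00447). The 24 h call was lost when any 1 of the 6 arrays of 0, 4 and 8 h was left out (limma adjusted p 0.0567 to 0.133) and kept without either 24 h array. The 4 h call was lost without any 1 of the same 6 arrays (limma adjusted p 0.142 to 0.500). The sign was negative at every time in each of these fits. Neither gene was called between 4 and 8 h or between 8 and 24 h in limma, where 0 genes were called in all.

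The size of the Gfi1 change differed between the genotypes at the early times. From 0 to 4 h it was 1.37 in the knockout-labelled arrays and 2.85 in the wild-type-labelled ones, from 0 to 8 h 1.48 and 2.58, and from 0 to 24 h 2.09 and 2.17. The differences in response, knockout-labelled minus wild-type-labelled, were -1.48, -1.10 and -0.08, none of them 4-fold. The genes with a 4-fold difference in response in either direction were 1.14% at 4 h, 2.48% at 8 h and 6.18% at 24 h, and a difference as far from 0 as that of Gfi1 was held by 4.45%, 14.8% and 91.5%. The wild-type-labelled signal was highest at 4 h and the knockout-labelled signal at 24 h: from 4 to 24 h Gfi1 changed by 0.73 in the knockout-labelled arrays and by -0.68 in the wild-type-labelled ones. For Gfi1b the changes at 4, 8 and 24 h were -2.42, -2.24 and -3.79 for knockout-labelled cells. For wild-type-labelled cells they were -2.50, -1.52 and -3.09. Its differences in response were 0.09, -0.73 and -0.70, and the first of them turned to -0.11 under quantile normalization and -0.03 under the median scaling. Between 4 and 8 h the Gfi1b signal was 0.99 higher in the wild-type-labelled arrays and 0.17 higher in the knockout-labelled ones.

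For Gfi1 the order of the arrays, from high to low, was knockout 24 h, knockout 8 h, wild type 4 h, knockout 4 h, wild type 8 h, wild type 24 h, knockout 0 h and wild type 0 h. The 4 arrays from knockout 8 h to wild type 8 h each lay within 0.19 of the next. That is inside the limma residual SD of 0.40, a moderated value that borrows from other genes and is not the spread of Gfi1 alone. The step down to wild type 24 h was of about the size of that SD, 0.41. For Gfi1b the order was knockout 0 h, wild type 0 h, wild type 8 h, knockout 8 h, knockout 4 h, wild type 4 h, wild type 24 h and knockout 24 h. Neighbours lay within its moderated residual SD of 0.36 among wild type 8 h, knockout 8 h and knockout 4 h (gaps of 0.06 and 0.17) and between the 24 h arrays (0.03). Over the 8 arrays the log2 signals of Gfi1 and Gfi1b had a Pearson r of -0.75, given as a description, since the arrays of a genotype share a source and the 0 h arrays stand at one end for both genes.

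The other genes of the mouse genome listed as SNAG domain repressors gave no level to set beside the pair. Probe sets were found for 6 of 7, Snai1, Snai2, Snai3, Scrt1, Insm1 and Insm2, and 0 were tested, because their highest signals, 28.4 (Snai3) to 128.3 (Insm1), lay under the floor on all 8 arrays.

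Gfi1 and Gfi1b are known to act through corepressors and partners. Of 18 listed, 15 were tested, 0 were at least 2-fold higher or lower at all 4 times, and 0 were called at any time in limma. Of all genes tested, 1.86% were higher and 0.166% lower at all 4 times. In limma no more than 2.48% rose, or fell, from 0 h to any 1 time. A count of 0 among 15 genes is near these shares. Kdm1a, which encodes LSD1, differed by -0.24, -0.33, -0.46 and -0.13 at 0, 4, 8 and 24 h. The largest mean differences were those of Ehmt2, a histone methyltransferase, at 0.72 (1.46 at 4 h, 1.06 at 8 h) and Chd4, a chromatin remodeller, at -0.60 (-1.55 at 8 h). Arih2, a ubiquitin ligase, differed by -1.14 at 0 h, -1.33 at 4 h and 1.08 at 24 h, and Smyd2, a lysine methyltransferase, by 0.94 at 0 h and -1.09 at 24 h, so that their differences in response at 24 h, 2.21 and -2.03, were beyond 4-fold, as were those of 6.18% of all genes. The list medians were 0.00, -0.22, -0.49 and -0.15, beside medians over all genes tested of 0.00, 0.00, -0.08 and 0.00. The summed signal of the 15 was 26353 to 31324 in the knockout-labelled arrays and 30253 to 36470 in the wild-type-labelled ones.

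A list of 29 reported or putative Gfi1 targets had 24 tested members, of which 5 were higher and 1 lower by at least 2-fold at all 4 times (1.86% and 0.166% of all genes). The 5 were Elane (neutrophil elastase, mean difference 3.99), Csf1r (the receptor of macrophage colony-stimulating factor, 3.42), Spi1 (the myeloid factor PU.1, 2.84), Hoxa9 (a homeobox factor of progenitors, 2.23) and Cebpa (a factor of granulocyte development, 2.19). Wild-type-labelled signals lay under the floor at 3 of the 4 times for Cebpa, at 2 for Hoxa9 and at 1 (24 h) for Elane and Csf1r, so these means are set in part by the floor and have no order. Cebpa passed the filter of 2 arrays above the floor only through the knockout-labelled arrays, where it is high. Its place in the count of 5 rests on those arrays. Elane, Csf1r and Hoxa9 are also on the granulocyte, monocyte and progenitor lists, and the sums of the first and second of those lists moved with the genotype as given above for granulocytes and, for 13 monocyte and macrophage genes, from 15659 to 55900 against 1544 to 9211. The 1 lower gene was Egr2, a zinc finger factor induced by the T cell receptor. Its signal was 246.4, 5534, 2616 and 1133 in the knockout-labelled arrays and 667.6, 16224, 7253 and 4394 in the wild-type-labelled ones, a mean difference of -1.60. The list medians were 0.27, -0.38, 0.28 and 0.68, beside medians over all genes tested of 0.00, 0.00, -0.08 and 0.00.

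The same targets over time gave 3 rises at 4 h, 4 at 8 h and 4 at 24 h in limma, and 1 fall, at 24 h, beside 0.804%, 1.18% and 1.49% of all genes rising and 2.48% falling at 24 h. Egr2 rose by 4.55 at 4 h (limma adjusted p = 0.00107), the cell cycle inhibitor gene Cdkn1a by 4.96 at 24 h (limma adjusted p = 0.00895) and the cytokine signalling inhibitor gene Socs1 by 3.53 at 4 h (limma adjusted p = 0.0134). The survival gene Bcl2l1 rose by 1.88 at 24 h (limma adjusted p = 0.0229), and the fall was that of Elane, -4.40 (limma adjusted p = 0.0485). Gfi1 itself was called at 24 h in the same direction as Egr2, Cdkn1a and Socs1.

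The T cell receptor is known to induce the early activation genes. Of 18 tested, 8 rose at 4 h, 9 at 8 h and 9 at 24 h in limma, and 1, Fos, fell at 24 h (-3.39, limma adjusted p = 0.0400). The shares of all genes were 0.804%, 1.18% and 1.49% for rises and 2.48% for falls at 24 h. Il2, the T cell growth factor, rose by 6.66 at 4 h (limma adjusted p = 0.00107), the inflammatory cytokine gene Tnf by 5.0 (limma adjusted p = 0.00107) and the interferon gene Ifng by 4.65 (limma adjusted p = 0.0159). Irf4, a factor of activated lymphocytes, rose by 4.64 (limma adjusted p = 0.0311). Both 0 h signals of Il2, 52.1 (knockout-labelled) and 129.1, were under the floor, so the size of the Il2 rise depends on the floor. The list median change at 4 h was 1.75 in the knockout-labelled arrays and 3.14 in the wild-type-labelled ones, and that of Gfi1 was 1.37 and 2.85. At 24 h the list medians were 1.67 and 1.41, and the Gfi1 changes 2.09 and 2.17. The median genotype differences of the list were -0.10, -0.93, -0.58 and 0.14, with Egr2 the only member of the 18 at least 2-fold lower at all 4 times (0.166% of all genes).

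Gfi1b is known to act in erythroid cells. Of 25 erythroid genes listed, 18 were tested, and 7 fell at 4 h, 7 at 8 h and 11 at 24 h in limma, with 0 rises (background falls of 0.627%, 1.25% and 2.48%). The list median change was -1.80, -1.63 and -2.13, against medians over all genes of -0.10, -0.11 and -0.08. Falls at 24 h included Car1 (carbonic anhydrase, -4.61, limma adjusted p = 0.0234), Ermap (an erythroid membrane protein, -4.34, limma adjusted p = 0.00904), Aqp1 (a water channel, -4.31, limma adjusted p = 0.0069) and Klf1 (the erythroid Krüppel-like factor, -3.70, limma adjusted p = 0.00912). Gata1, the erythroid GATA factor, had signals of 831.2, 200.1, 280.1 and 405.6 in the knockout-labelled arrays and 915.6, 421.9, 516.6 and 329.3 in the wild-type-labelled ones, and was not called. At 24 h the knockout-labelled signals of Ermap and Aqp1 and both signals of Rhag were under the floor, so the sizes of these falls depend on the floor and have no order. The summed erythroid signal was highest on the 0 h array in both genotypes, at 56327 (knockout-labelled) and 45355, and was 11846 to 20177 on the other 6 arrays. Most of the 24 h sums, 18586 and 20177, was Tfrc (transferrin receptor, which proliferating cells also express), at 15084 and 14259. Without Tfrc, left out after seeing the data, the sums were 51528 and 41538 at 0 h, 6395 to 8555 at 4 and 8 h, and 3502 and 5918 at 24 h, with 9 and 8 of the 18 genes at or under the floor at 24 h. The part of the erythroid signal in the fall of Gfi1b was not tested, and time in culture and the antibodies cannot be told apart, since no culture without antibodies was analysed here.

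**Figure D3:**
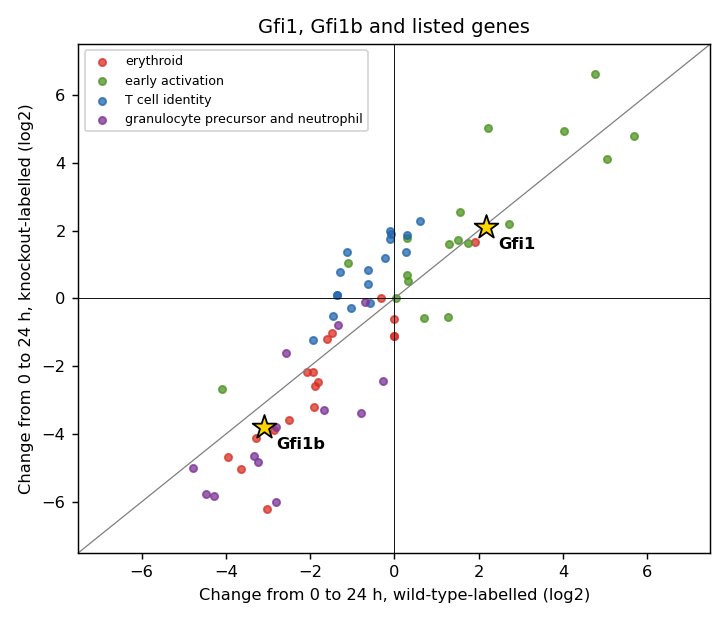
Change in log2 signal from 0 to 24 h in the wild-type-labelled arrays (horizontal) against that in the knockout-labelled arrays (vertical), 1 dot per tested gene of 4 lists and a star for Gfi1 and Gfi1b, with the line of equal change in grey. Gfi1 lies at 2.17 and 2.09 beside early activation genes, and Gfi1b at -3.09 and -3.79 beside erythroid and granulocyte genes.

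Between genotypes the erythroid list had median differences of 0.43, -0.03, 0.00 and 0.00, where the floor made 0, 4, 2 and 7 of the 18 differences exactly 0, and Gfi1b had 0.67, 0.75, -0.06 and -0.03. Nfe2, an erythroid and megakaryocytic factor that myeloid cells also express, was the 1 member at least 2-fold higher at all 4 times (mean difference 2.06), beside 1.86% of all genes. Of 6 tested megakaryocyte and platelet genes, 1 was, Selp (P-selectin, 2.21), and 0 were called in limma. Of 14 progenitor and mast cell genes 5 were, among them Hdc (histidine decarboxylase, 3.27), Cd34 (2.81), Mcpt8 (a basophil protease, 2.67) and Cpa3 (a mast cell carboxypeptidase, 2.59). Wild-type-labelled signals lay under the floor at all 4 times for Hdc and Cd34, at 2 for Cpa3 and at 1 for Mcpt8, so these means are set in part by the floor. Hdc and Cd34 entered the genes tested, those above the floor on at least 2 arrays, through the knockout-labelled arrays alone. Their place in the count of 5 rests on those arrays. The sum of the progenitor and mast cell list was 12317 to 29587 in the knockout-labelled arrays and 4208 to 13850 in the wild-type-labelled ones. In limma 2 of these 14 fell at 24 h, beside 2.48% of all genes, Kit (-2.11, limma adjusted p = 0.0234) and Myb (-2.11, limma adjusted p = 0.0359). The granulocyte list, with 8 of 13 members called as falls at 24 h (2.48% of all genes) and 0 at 4 and 8 h (0.627% and 1.25%), changed by a median of -0.13, -0.97 and -3.30 at 4, 8 and 24 h, where Gfi1b changed by -2.46, -1.88 and -3.44. At 24 h, 12 of the 13 were at or under the floor in the wild-type-labelled array and 3 in the knockout-labelled one. The sizes of the granulocyte changes at 24 h thus depend on the floor. Of the remaining marker lists, 1 of 8 B cell genes (Ms4a1) was lower by 2-fold or more at all 4 times (0.166% of all genes). The B cell gene Blk went the other way, at 1.33, 1.27, 0.71 and 1.13. At 24 h 4 of the 8 fell (2.48%), and 0 of 4 natural killer cell genes passed either rule. Of 13 monocyte and macrophage genes, 5 were higher by 2-fold or more at all 4 times (1.86%) and 4 fell at 24 h (2.48%). In the wild-type-labelled 24 h array 9 of these 13 were at or under the floor.

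The genes whose pattern was most like each member were found by Pearson r of log2 signal over the 8 arrays, among 1658 genes whose log2 range was at least 2. For Gfi1 the 8 highest were Nfil3 (0.95), Nfkbib (0.94), Samsn1 (0.93), Nampt (0.93), Ccl3 (0.92), Rnf157 (0.91), Niban1 (0.91) and Clic4 (0.91). Nfil3, a leucine zipper repressor, had signals of 694.4, 1092, 1392 and 2593 in the knockout-labelled arrays and 52.3, 945.7, 1446 and 728.6 in the wild-type-labelled ones, so that it too was highest at knockout 24 h and lowest at wild type 0 h. That lowest signal was under the floor, as were those of Ccl3 at wild type 0 h (27.8) and of Rnf157 at 0 h in both genotypes (55.9 and 25.5). The r of these genes rests in part on values set to the floor. Samsn1, an adaptor gene of lymphocytes, had 1570, 2822, 2715 and 4933 against 1184, 3529, 2423 and 1886, with the same crossing of the genotypes at 4 h. The 4 most unlike were Tspan32 (-0.97), Pwwp3a (-0.96), Grk6 (-0.96) and Abhd8 (-0.95). Without the 0 h arrays, over 6 arrays, r stayed at 0.96 for Samsn1, 0.87 for Niban1 and 0.86 for Nfil3 and was 0.07 for Clic4, and only Samsn1 was still among the 8 highest.

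For Gfi1b the 8 most like were Gstm5 (0.98), Tal1 (0.98), Ripor1 (0.95), Gpsm3 (0.94), Rcsd1 (0.92), Chdh (0.92), Car2 (0.92) and Rhag (0.92). Of these, 3 are on the erythroid list, which held 12 of the 1658 genes compared (0.724%). They were Tal1, a helix-loop-helix factor of erythroid and progenitor cells, Car2 (a carbonic anhydrase) and Rhag (a red cell membrane channel). Rhag lay under the floor on 2 arrays of each genotype. Tal1 had signals of 1828, 558.5, 594.6 and 196.7 in the knockout-labelled arrays and 1126, 290.0, 464.1 and 299.5 in the wild-type-labelled ones, with the low value at wild type 4 h that Gfi1b also had. The 4 most unlike were Tnfrsf18 (-0.95), Rbpj (-0.94), Tnfrsf4 (-0.94) and Abcb1b (-0.94), of which Tnfrsf18 and Tnfrsf4 encode receptors of activated T cells. Without the 0 h arrays r was 0.91 for both Gstm5 and Tal1, which alone stayed among the 8 highest, and 0.60 for Car2. All of these correlations share the 8 arrays and their sources and describe likeness of pattern only.

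**Figure D4:**
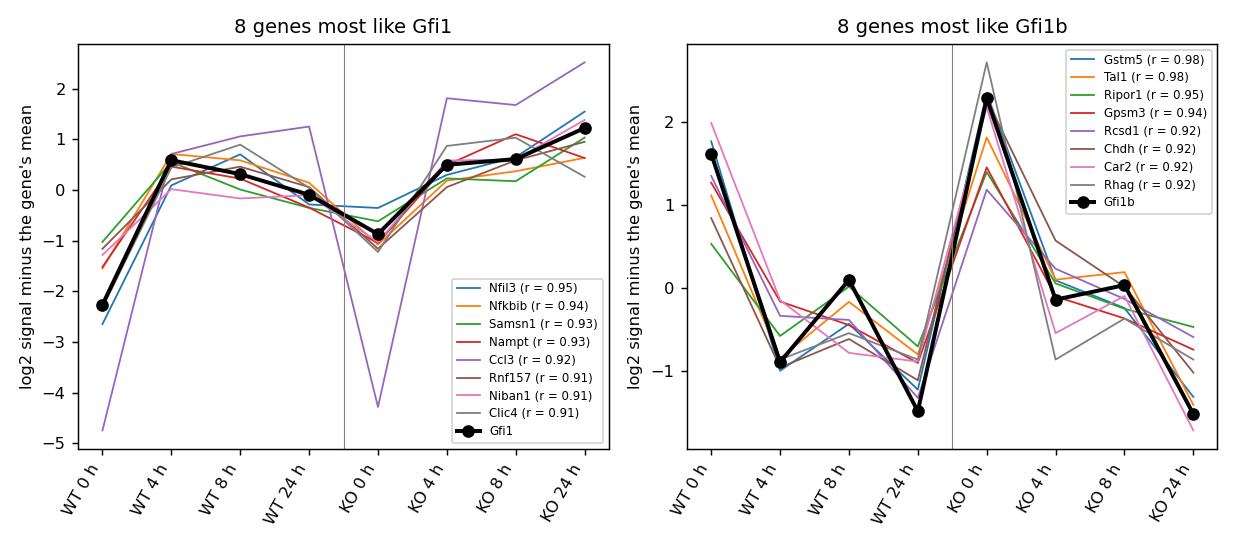
Log2 signal minus the gene's own mean on the 8 arrays (WT wild-type-labelled, KO knockout-labelled) for Gfi1 (left, black) and Gfi1b (right, black) with the 8 genes most like each by Pearson r over these arrays. The Gfi1 group is lowest on the 0 h arrays of both genotypes and the Gfi1b group highest there; Ccl3 has the widest range on the left.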

How the data were processed

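RNA from 8 samples was hybridised to Affymetrix MOE430A_2.0 arrays after biotin labelling of about 1 µg per sample, per the labels. The values are signal intensity as deposited by the authors, from GCOS 1.4 with MAS5 per the submitters' processing notes; the notes do not say what each step did. The 2% trimmed mean of every array was 1000.4 to 1000.5, the median signal 224.3 to 305.0 and the share of probe sets above the floor 56.5% to 61.5%. No column of the table was left out (0).

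Probe sets were named by GEO's platform annotation: 20380 listed 1 symbol, 691 several and 1555 none, beside 64 controls. Signals under 141.88, the median over arrays of the 40th percentile, were set to that floor before log2. The 15062 probe sets above it on at least 2 arrays were tested, and for each of 8457 genes the probe set of highest mean was kept. Genotypes were compared by size (2-fold, or 4-fold for a difference in response), with no p-value. Time was fitted with limma 3.58.1 (R 4.3.3), with genotype in the model, a variance trend, 3 residual degrees of freedom and a median of 3.88 prior ones. A call needed a Benjamini-Hochberg adjusted p under 0.05 over all 15062 probe sets and a 2-fold change. Precision is limited by the number of arrays, 1 for each genotype and time. The steps were tested on simulated data.

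The members and the 12 gene lists (198 genes) were chosen with earlier results of these data known, so list counts are descriptions. Genes are named by rule: both members, the 8 genes most like and the 4 most unlike each, and, of each list, members 2-fold at all 4 times or called in limma, up to 4 by size, or, where a list had none, the 1 or 2 with the largest mean difference. Cebpa, Bcl2l1, Fos, Kdm1a, Arih2, Smyd2, Tfrc, Gata1, Thy1, Ltf, Camp, Ngp, S100a9 and Blk were added after seeing values. Tables and figures used python 3.11.15, pandas 2.3.3, numpy 2.4.6 and matplotlib 3.10.9. Promoter sequences are from RefSeq. Alternatives in scaling, floor, filter, model and arrays are given in the closing section, and the likeness without the 0 h arrays and the sum without Tfrc were chosen after seeing the data.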

Additional observations from a re-analysis of the deposited data

Results flagged for a closer look

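The Gfi1 probe set changed in opposite directions in the 2 genotypes after 4 h. From 4 to 8 h its log2 signal was 0.11 higher in the knockout-labelled arrays and -0.27 in the wild-type-labelled ones, a difference of 0.39. From 8 to 24 h the changes were 0.61 and -0.41, a difference of 1.02, and from 4 to 24 h 0.73 and -0.68, a difference of 1.41. Among all genes tested, 41.8%, 21.1% and 12.8% had a difference between the genotypes as far from 0 over the same intervals. Each change is that of 1 array against 1 array, so the difference was not tested.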

How the results depend on the processing

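Of 248 values under another setting, 146 were labelled as unchanged. Values with a limma test in this group kept their direction and side of the threshold. Differences without a test moved by less than the spread, and counts of genes stayed within a fixed factor of the main count. A further 29 lost a call, 9 gained one and 64 moved. The sign turned in 5 values, none of which has a limma test and some of which are among the 146. The Gfi1b difference in response at 4 h was -0.11 after quantile normalization and -0.03 after median scaling. Relative to the T cell list, the differences of Gfi1 at 4 h (1.65) and of Gfi1b at 8 h (1.57) and 24 h (0.21) became positive. Those of 1.65 and 1.57 were beyond 2-fold, in a setting that raises each value by construction. The cause was not tested.

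The 24 h rise of Gfi1 lost its limma call with quantile normalization (2.13, adjusted p = 0.0540), a floor at the 60th percentile (2.13, 0.0575), no filter (2.13, 0.220), no genotype block (2.13, 0.163) and no variance trend (2.13, 0.0536). Its 8 h change gained a limma call with each array divided by its median (2.28, adjusted p = 0.0403) and with log2 of the signal plus the floor (1.91, 0.0414). The 4 h fall of Gfi1b lost its limma call with quantile normalization (-2.37, adjusted p = 0.0525), a floor at the 20th percentile (-2.46, 0.0520), no filter (-2.46, 0.224) and no genotype block (-2.46, 0.0702), and its 24 h fall with no filter (-3.44, 0.112). The 8 h change of Gfi1b gained a limma call with a floor at the 60th percentile (-1.71, adjusted p = 0.0362), log2 of the signal plus the floor (-1.59, 0.0292) and no variance trend (-1.88, 0.0439). Leaving out 1 array at a time, where the lone array of a time is assumed to vary like the others, the Gfi1 change was 1.56 to 2.66 at 4 h, 1.59 to 2.47 at 8 h and 1.69 to 2.57 at 24 h. The Gfi1b change was -2.74 to -2.18, -2.14 to -1.62 and -3.69 to -3.20. At 8 h either gene gained a limma call without either 24 h array.

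With a floor at the 60th percentile the Gfi1b difference at 4 h was 0.00, both arrays being at the floor. Relative to the T cell list, differences were 3.28, 1.65 and 1.93 for Gfi1 at 0, 4 and 8 h and 2.55, 2.49 and 1.57 for Gfi1b. Genes called in limma at 4, 8 and 24 h numbered 121, 206 and 336, against 60, 86 and 115 with the 60th percentile floor, 11, 8 and 12 with no filter and 53, 71 and 70 with no genotype block, and 0 to 190, 0 to 438 and 0 to 712 without 1 array. Without either 0 h array all 3 counts were 0; without the wild-type 24 h array they were 190, 418 and 712. The 157 higher and 14 lower genes at all 4 times became 239 and 25 with a floor at the 20th percentile, 48 and 6 at the 60th, 913 and 0 relative to the T cell list, and 29 lower with each array divided by its median. Leaving out 1 time gave 162 to 348 higher (348 without 24 h, 283 without 0 h) and 19 to 113 lower (113 without 24 h, 38 without 0 h, 22 without 8 h). Of the 8 genes most like each member, 3 for Gfi1 and 3 for Gfi1b were shared by Spearman rho, and 1 and 2 without the 0 h arrays. Genotype is already a block in the fit of time; no further paired analysis, by replicate number, was possible because each group has 1 array. Signal near the floor limits Gfi1b at 24 h.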
